A study of Rattus norvegicus with 26 samples.

Results

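Between-rat spread of expression, that is how far the rats of 1 treatment group differed from each other, was measured gene by gene in the dentate gyrus of all 26 rats of the study. Each gene's spread was the SD over rats of log2(normalized count + 1), computed separately in the Veh, Dox and Dox + ABT groups, for the 13667 of 17910 genes whose mean over the 26 rats reached 20 normalized counts. The genes at that limit were Nrg1 just below it, with a mean of 19.98, and Fanci just above it, with a mean of 20.02. All rats were male Fischer 344 rats of 6 months. The 8 Dox rats received doxorubicin, an anthracycline chemotherapy drug, at 2 mg/kg once per week for 4 weeks. The 8 Dox + ABT rats received the same doxorubicin and also ABT-263 (navitoclax), a senolytic that inhibits BCL-2 family proteins, given orally in alternate weeks on 5 days running, each dose being 12 mg/kg. The 10 Veh rats received vehicle and belonged to an ongoing study of aging. RNA came from the dentate gyrus of 1 hemisphere, poly(A) RNA was sequenced on an Ion Proton instrument, and each rat gave 1 library. The deposited values are normalized counts, not reads, and they are whole-tissue values, in which fewer cells of a type and less RNA per cell cannot be told apart. The rats are named by their labels, V, D or DA and a number. A number shared by 2 groups names different rats.

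The dentate gyrus is the input region of the hippocampus and consists mostly of granule cells, with astrocytes, microglia, oligodendrocytes and blood vessels between them. Its granule cells carry many receptors for glucocorticoids, the adrenal hormones that rise with stress and with the time of day and that switch on genes such as Fkbp5, Sgk1 and the metallothioneins. NF-kB is the transcription factor that cytokines and bacterial products activate, and it induces its own inhibitor Nfkbia along with chemokines and adhesion molecules. A group of rats can show a larger spread because every rat differs more from the others or because a few rats stand far from the rest, and the values of each rat tell these apart.

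The libraries carried the markers of the dissected region. The granule cell transcription factor Prox1 ran from 1679.7 to 3587 with a median of 2349 normalized counts in Veh, from 1852 to 3473 with a median of 2558 in Dox and from 2259 to 3577 with a median of 2733 in Dox + ABT, and 11 of the 14 listed granule cell markers passed the limit. Genes of cytosolic ribosomal proteins took 0.624% to 2.06% of the normalized counts of a library, and this share split the libraries within every group. The leading principal component of the rats' differences from their own group mean set 16 libraries, with ribosomal shares of 0.624% to 1.23%, apart from 10 libraries with shares of 1.30% to 2.06%. The 10 libraries came from 6 Veh rats, 3 Dox rats (D5, D7 and D14) and 1 Dox + ABT rat (DA4), so the groups differed in how many of each kind they held. The largest single gap in that component set V10 and V11 apart from the other 24 libraries. With the 16 and 10 libraries as a term in the fit, 34 of the 66 calls of named genes for Dox against Veh were kept, 40 of 56 for Dox against Dox + ABT and 12 of 27 for Dox + ABT against Veh, so single calls carry this limit. No 2 libraries were copies of each other: the MAD of the log2 differences to the nearest rat of the same group ran from 0.0969 to 0.289 over 5520 genes whose mean reached 500.

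The spread over all genes had nearly the same median among Dox and Veh rats, while a minority of genes was much wider among Dox rats. The median SD over genes, on the log2 scale, was 0.281 among Veh rats, 0.284 among Dox rats and 0.224 among Dox + ABT rats. The ratio of the SD in Dox to that in Veh had a median of 1.01, and 6927 of 13667 genes (50.7%) had the larger SD in Dox. At p under 0.01 in limma's test of the deviations, 526 genes were wider in Dox than in Veh (3.85% of the genes tested) and 234 were narrower (1.71%). The Benjamini-Hochberg adjusted p was under 0.05 for 63 genes (0.461%), 59 of them wider in Dox. Of the 526 wider genes, 491 passed the same threshold for neither a higher nor a lower mean. A higher mean in Dox was found in 14 of them (2.66%) and a lower mean in 21 (3.99%), which are larger shares than the 130 (0.951%) and 258 (1.89%) of all tested genes.

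**Figure D1:**
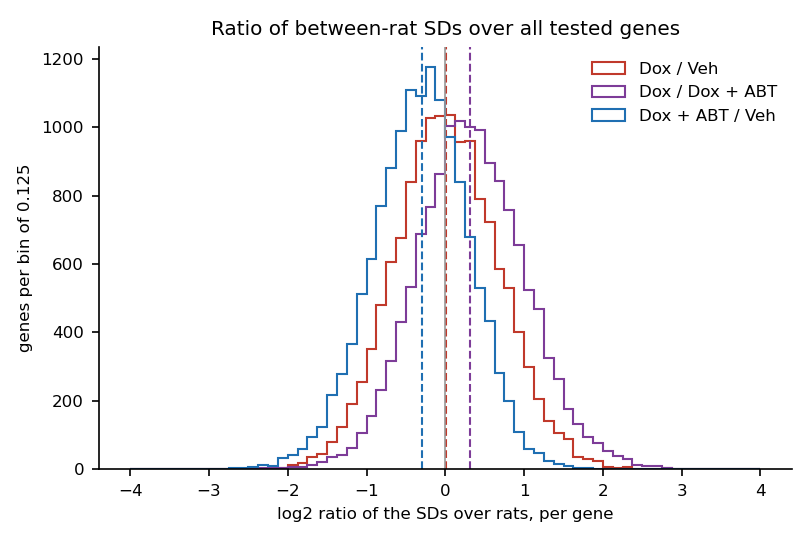
Histograms of the log2 ratio of between-rat SDs for 13667 genes, with the number of genes per bin on the y axis, for Dox over Veh (red), Dox over Dox + ABT (purple) and Dox + ABT over Veh (blue). Dashed lines mark the medians: the red one lies near 0 (SD ratio 1.01), the purple one to the right (1.25) and the blue one to the left (0.815).

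The spread was smaller in the rats that also received ABT-263. The SD was larger in Dox than in Dox + ABT for 9385 genes (68.7%), with a median ratio of 1.25. At p under 0.01, 834 genes were wider in Dox than in Dox + ABT (6.1%) and 37 were narrower (0.271%), and 170 had an adjusted p under 0.05 (1.24%), 164 of them wider in Dox. Dox + ABT rats were also closer to each other than Veh rats: the SD ratio of Dox + ABT to Veh had a median of 0.815, 37 genes were wider (0.271%), 487 were narrower (3.56%) and 1 had an adjusted p under 0.05 (0.00732%). These counts depended on how deviation was measured and on single rats: with deviations from the group median in place of the mean, 189 genes were wider in Dox than in Dox + ABT, 145 narrower in Dox + ABT than in Veh and 142 wider in Dox than in Veh. The 834 became 535 without D5, and the 487 became 237 without V11. The Dox group is part of both of the first comparisons and the Dox + ABT group of both of the last, so these counts are not independent of each other.

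The same order held for single rats. The median over genes of a rat's absolute deviation from its group mean was 0.206 ± 0.0427 (SD, n = 10) in Veh, with a lowest rat at 0.140 (V4), a median of 0.202 and a highest rat at 0.294 (V11). It was 0.210 ± 0.0374 (SD, n = 8) in Dox, from 0.167 in D9 through 0.171 in D10, 0.171 in D13, 0.215 in D1, 0.218 in D14, 0.222 in D2 and 0.244 in D7 to 0.269 in D5. It was 0.161 ± 0.0325 (SD, n = 8) in Dox + ABT, where 6 rats lay between 0.139 and 0.158 and DA1 and DA4 were higher, at 0.196 and 0.227. Dox and Veh differed by 0.0037 (two-sided exact permutation test, p = 0.853), Dox exceeded Dox + ABT by 0.048 (exact p = 0.0194) and Dox + ABT lay below Veh by 0.044 (exact p = 0.0259). The ranges of all 3 groups overlapped. The difference between Dox and Dox + ABT had an exact p of 0.100 without D5 and 0.108 without D7. That between Dox + ABT and Veh had an exact p of 0.106 without V11, 0.0833 without V10, 0.0512 without DA2, 0.0520 without DA3, 0.0534 without DA5 and 0.0503 without DA11. In these fits the difference itself was 0.035 and 0.039 for Dox less Dox + ABT, and for Dox + ABT less Veh -0.032 without V11, -0.038 without V10 and -0.043 to -0.040 without the Dox + ABT rats named, so the direction was kept and the side of 0.05 was not.

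**Figure D2:**
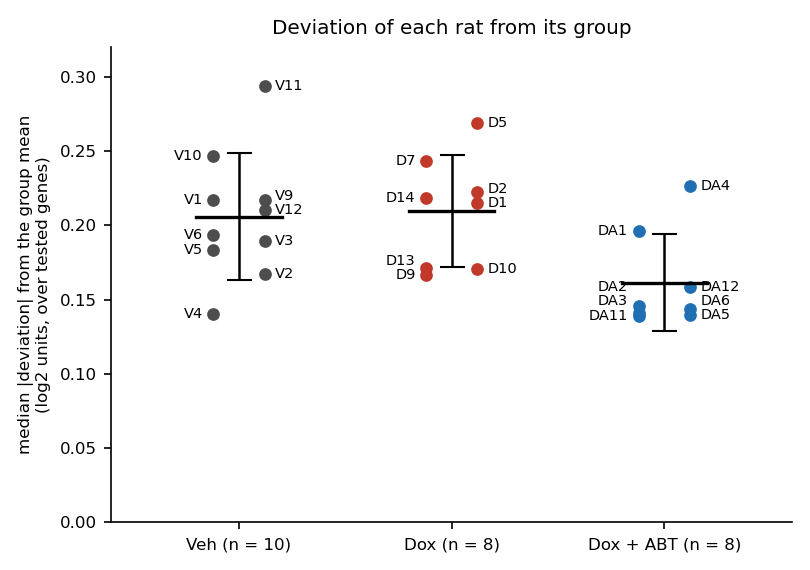
Median absolute deviation of each rat from its group mean (y axis, log2 units, over 13667 genes) for 10 Veh, 8 Dox and 8 Dox + ABT rats, with the group mean (bar) and SD (whiskers). D5 and D7 are the highest Dox rats, and 6 of the 8 Dox + ABT rats sit between 0.139 and 0.158.

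These group differences moved with the kind of library. Within the 16 libraries of the larger kind (4 Veh, 5 Dox, 7 Dox + ABT), the per-rat deviation differed by 0.00572 between Dox and Dox + ABT (exact permutation test, p = 0.640) and by -0.0098 between Dox + ABT and Veh (exact p = 0.5), while 722 genes were wider and 189 narrower in Dox than in Dox + ABT and 481 were wider and 537 narrower in Dox than in Veh. The 10 other libraries held 1 Dox + ABT rat, which allows no comparison with that group. With the kind in the fit of the mean, 321 genes were wider in Dox than in Veh and 361 wider in Dox than in Dox + ABT, and the per-rat difference was 0.017 for Dox less Dox + ABT (exact p = 0.436) and -0.010 for Dox + ABT less Veh (exact p = 0.411). The smaller per-rat deviation in Dox + ABT did not pass its test in either fit.

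Gene functions differed in how wide they were among Dox rats. Of 44 gene lists with at least 5 members tested, 21 had a median SD ratio of Dox to Veh above 1, beside the 1.01 of all genes, and 42 had a median ratio of Dox to Dox + ABT above 1, beside 1.25. Glucocorticoid-responsive genes had the largest median ratio of Dox to Veh among these lists (1.91), followed by haemoglobin and red-cell genes (1.76), NF-kB and acute inflammation genes (1.74), immediate early genes (1.49), unfolded protein response genes (1.40) and interferon response genes (1.35). Nuclear genes of oxidative phosphorylation had the smallest (0.732), with antioxidant genes (0.790), myelin genes (0.791) and cytosolic ribosomal protein genes (0.806) next to them. Of the lists just named, 4 held members that passed the limit only through Dox. Without them the medians were 1.88 (glucocorticoid), 1.68 (red-cell), 1.70 (NF-kB) and 1.29 (interferon). The NF-kB list then came before the red-cell list. Proliferation, choroid plexus and vasoactive genes also held such members. Without these the proliferation median rose from 1.29 to 1.42, above the unfolded protein response and interferon lists. The vasoactive median fell from 1.0003 to 0.990, no longer above 1, and the choroid plexus median from 0.919 to 0.872. The granule cell markers had a median of 1.15, with 0 of 11 members wider in Dox than in Veh.

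**Figure D3:**
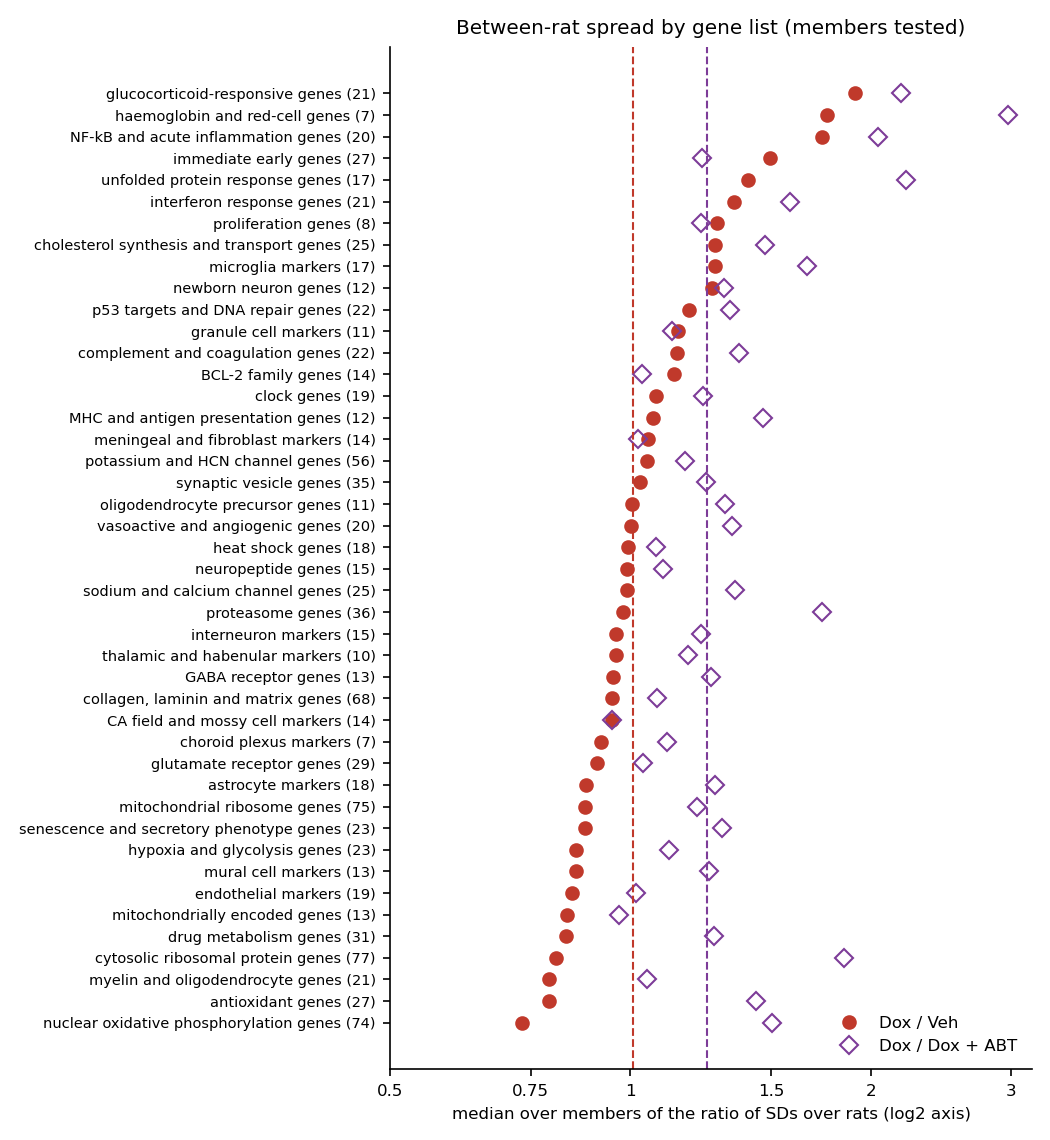
Median over the members of each gene list (y axis, number of tested members in brackets) of the ratio of SDs over rats (x axis, log2 axis), for Dox over Veh (red circles) and Dox over Dox + ABT (open purple diamonds). Dashed lines give the medians over all genes (1.01 and 1.25). Glucocorticoid-responsive genes (1.91 and 2.18) lie at the top and nuclear oxidative phosphorylation genes (0.732 and 1.5) at the bottom.

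Glucocorticoid-responsive genes were wide among Dox rats, with 2 of the rats, D1 and D2, far above the other 6. Of the 21 tested members of 22 listed, 9 were wider in Dox than in Veh and 0 narrower (42.9% wider, beside 3.85% of all genes), 8 were wider in Dox than in Dox + ABT (38.1%, beside 6.1%), and D1 and D2 held both highest places among the Dox rats in 17 of the 21, beside 13.7% of all genes. In each of the 9 members wider than in Veh, D1 and D2 were the highest. The mean of the members, as a log2 difference from each gene's mean over all rats, was 1.25 in D1 and 1.27 in D2, against -0.12 to 0.16 in the other Dox rats, -0.34 to 0.036 in Veh and -0.34 to -0.068 in Dox + ABT. The members were listed with earlier results of these rats known.

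Fkbp5, a chaperone of the glucocorticoid receptor and one of its most direct targets, had 4011 in D1, 3998 in D2, 1926 in D5, 2067 in D7, 2115 in D9, 1859.8 in D10, 2199 in D13 and 2278 in D14. The Veh rats ran from 1739 to 1968 with a median of 1879.7 and the Dox + ABT rats from 1537 to 2115 with a median of 1828. D1 and D2 lay close to each other, while every other rat of the study lay between 1537 and 2278. The SD was 0.45 in Dox, 0.065 in Veh and 0.14 in Dox + ABT, and the mean absolute deviation was larger in Dox than in Veh by 0.32 ± 0.064 (SE, limma p = 1.53e-06, adjusted p = 0.00903).

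Sult1a1, a sulfotransferase of phenols and catecholamines, had 791 in D1, 792 in D2, 358 in D5, 399 in D7, 204 in D9, 255 in D10, 248 in D13 and 312 in D14, beside 186 to 241 in Veh and 206 to 276 in Dox + ABT. It had the smallest p of all genes for Dox against Veh (limma p = 3.60e-07, adjusted p = 0.00491), with SDs of 0.74 and 0.11. D5, D7, D10, D13 and D14 were also above every Veh rat, and without D1 and D2 the gene was still wider than in Veh (p = 0.000133), but not without D5 and D7 as well (p = 0.0620).

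Mt1, a metallothionein that binds zinc and copper, also had D1 and D2 at the top, with 1492 in D1, 1643 in D2, 166 in D5, 225 in D7, 141 in D9, 169 in D10, 158 in D13 and 116 in D14, against 115 to 222 in Veh and 69.8 to 140.3 in Dox + ABT (SD 1.55, 0.36 and 0.31). The difference of deviations was 0.99 ± 0.23 from Veh (limma p = 2.54e-05) and 1.09 ± 0.24 from Dox + ABT (p = 1.24e-05). Mt2A, also a metallothionein, had 643 and 697 in D1 and D2 and 194 to 369.5 in the other Dox rats but did not pass the test (p = 0.147), and Mt3, the metallothionein typical of brain, had its 2 lowest Dox values in the same rats, 2707 and 2761 of up to 8693 (p = 0.412). Metallothionein genes resemble each other closely, so reads may be split between them.

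The promoter of Mt1 is shown because metal response elements are a known feature of metallothionein promoters. It spans chr19:10832926-10833225 on the minus strand of GRCr8, 250 bases before to 50 after the start in the RefSeq table, a newer build than the rn6 of the values. Capitals mark the core letters TGCGCNC or TGCACNC on either strand, which occurred at 6 places here and at 1 or more places in 24.2% of the 33469 promoters of the table.
Mt1: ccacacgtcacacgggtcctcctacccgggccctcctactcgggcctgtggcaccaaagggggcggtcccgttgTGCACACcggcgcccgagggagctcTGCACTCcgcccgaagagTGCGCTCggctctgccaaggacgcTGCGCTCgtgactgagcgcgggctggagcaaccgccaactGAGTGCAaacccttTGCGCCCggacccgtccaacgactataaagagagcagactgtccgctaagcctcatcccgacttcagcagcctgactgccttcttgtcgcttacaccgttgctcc
The matches describe the sequence and were not tested for use in these rats.

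Other members followed the same 2 rats. Pla2g3, a secreted phospholipase, had 449 and 360.2 in D1 and D2 against 27.7 to 47.3 in the other Dox rats, 4.29 to 33.6 in Veh and 13.7 to 34.2 in Dox + ABT. Its mean over the Veh and Dox + ABT rats was under 20, so it passed the limit only through Dox and its test is not used. Sgk1, a kinase that regulates ion channels, had 3222 and 3008 against 735 to 1883 (p = 0.00744), and Dusp1, a phosphatase of MAP kinases, had 774 and 712 against 128 to 242 (p = 0.00277). Leaving out D1 and D2 left 2 members wider than in Veh, leaving out D5 and D7 left 8, and 6 were wider with the 16 and 10 libraries in the fit. Without the members that passed the limit only through Dox, 8 were wider than in Veh and 7 wider than in Dox + ABT, and the list mean was 1.01 in D1, 1.04 in D2 and -0.17 to 0.14 in the other Dox rats. D1 and D2 were both highest in 15 of the 19 members then left.

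NF-kB and acute inflammation genes showed the same pair of rats. Of 40 listed genes 20 passed the limit, 8 of these were wider in Dox than in Veh (40.0%, beside 3.85% of all genes) and 8 wider than in Dox + ABT (40.0%, beside 6.1%), and 0 were narrower in either comparison. The mean of the members was 1.0 in D1 and 1.13 in D2, -0.25 to 0.061 in the other Dox rats, -0.18 to 0.089 in Veh and -0.33 to 0.11 in Dox + ABT, and D1 and D2 were both highest in 13 of the 20 genes, beside 13.7% of all genes. The SD of this mean over Dox rats was 0.534 with all 8 rats and 0.119 without D1 and D2, next to 0.0702 in Veh and 0.138 in Dox + ABT. Without these 2 rats 0 members were wider than in Veh, against 9 without D5 and D7, and 8 with the 16 and 10 libraries in the fit. Cd14 and Socs3 passed the limit only through Dox, and without them 6 members were wider than in Veh and 6 wider than in Dox + ABT, and the list mean was 0.79 in D1, 0.88 in D2 and -0.26 to 0.059 in the other Dox rats. D1 and D2 were both highest in 11 of the 18 members then left, and the SD of their mean over the 8 Dox rats was 0.445.

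Csf2rb, the shared signalling chain of the receptors for IL-3, IL-5 and GM-CSF, had 250.5 in D1, 249 in D2, 15.4 in D5, 23.7 in D7, 20.5 in D9, 35.0 in D10, 17.2 in D13 and 11.8 in D14, with 16.8 to 34.5 in Veh and 14.7 to 34.7 in Dox + ABT (limma p = 1.65e-05, adjusted p = 0.0205). Il4r, the receptor chain for IL-4 and IL-13, had 1099.6 and 1117 in D1 and D2, 420.4 to 596 in the other Dox rats, 367 to 526 in Veh and 352 to 420.4 in Dox + ABT. It passed the test for Dox against Dox + ABT (limma p = 8.58e-06, adjusted p = 0.0216). In both receptors the 6 other Dox rats lay in or near the Veh range.

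Cd14, a co-receptor for bacterial lipopolysaccharide, had 163 and 164 in D1 and D2 and 16.4 to 36.3 in the others. Socs3, a feedback inhibitor of cytokine signalling, had 93.9 and 182 against 7.51 to 18.8, and Plau, the urokinase protease, 205 and 188 against 14.6 to 85.0 (p = 0.000374). Members under the limit of 20 were not tested, and several had the same 2 rats on top. Tnf, the inflammatory cytokine, had 44.5 and 71.0 in D1 and D2, 1.82 to 8.80 in the other Dox rats and at most 4.15 in Veh and 2.51 in Dox + ABT. Selp, the P-selectin of activated endothelium, had 32.3 and 23.5 against at most 2.09 in the others, and Cxcl1, a chemokine for neutrophils, had 15.2 and 30.5 with 9.99 in D5 and at most 1.49 in Veh. Bcl3, an atypical inhibitor of NF-kB, had 49.3 and 68.0 against 1.07 to 10.8, while Il1b, the cytokine interleukin-1 beta, had at most 3.52 in Dox and 7.39 in Veh.

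The promoters of Nfkbia, the inhibitor that NF-kB induces, and of Cxcl1 are shown because both hold 1 exact form of the NF-kB site, 3 G, 2 A, 3 T and 2 C in this order, and both genes were highest in D1 and D2. Nfkbia had 731 and 752 in those rats against 192 to 291 in the other Dox rats (limma p = 0.00747). The 10 letters, searched on both strands and written in capitals, occurred in 25 of 33469 promoters (0.0747%) and in 4 of the 33 promoters found for the 40 listed genes, those of Nfkb1, Nfkbia, Nfkbiz and Cxcl1. The windows are chr6:78597023-78597322 and chr14:17479272-17479571 of GRCr8, both on the minus strand, and in Nfkbia the match lies on the strand opposite to the one printed.
Nfkbia: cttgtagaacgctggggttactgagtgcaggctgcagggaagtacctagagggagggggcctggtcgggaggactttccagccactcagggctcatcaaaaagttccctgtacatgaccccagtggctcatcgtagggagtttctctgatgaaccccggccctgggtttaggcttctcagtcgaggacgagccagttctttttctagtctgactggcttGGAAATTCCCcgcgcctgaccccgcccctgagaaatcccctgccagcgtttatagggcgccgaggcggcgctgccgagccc
Cxcl1: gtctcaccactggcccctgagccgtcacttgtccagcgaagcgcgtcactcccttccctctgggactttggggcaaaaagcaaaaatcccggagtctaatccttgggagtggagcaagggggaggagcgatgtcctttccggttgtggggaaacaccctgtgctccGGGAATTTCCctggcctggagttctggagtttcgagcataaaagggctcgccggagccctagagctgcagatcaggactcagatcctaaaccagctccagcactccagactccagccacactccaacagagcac
A list chosen for NF-kB targets holds such sites by its choice, and no other NF-kB motif was searched.

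Markers of blood cells were read beside these genes. Of 17 neutrophil and monocyte markers 8 were in the table and 3 passed the limit, among them Cd14 only through Dox. D1 and D2 were highest for Cd14 and lowest for Csf3r, the receptor for the neutrophil growth factor G-CSF. Their summed level was 459.6 in D1 and 483 in D2, 297 to 450.0 in the other Dox rats, 335 to 636 in Veh and 415 to 566 in Dox + ABT. Without Cd14 the sum was 296 in D1 and 319 in D2, inside the 281 to 434 of the other Dox rats. It ran from 316 to 615 in Veh and from 402 to 552 in Dox + ABT, so that D1 was below every Veh rat and D1 and D2 below every Dox + ABT rat. The neutrophil granule genes were near 0 in both rats, S100a9 at 0, S100a8 at 0.949 and 2.35 and Mpo at 0.0273 and 0. Their ribosomal shares, 1.12% and 1.11%, lay inside the range of the other Dox rats (0.844% to 1.80%). The mean of the haemoglobin and red-cell genes was 1.24 and 1.15 in D1 and D2, above -1.37 to 0.31 in D9, D10, D13 and D14. The part of red-cell RNA in the inflammatory genes was not tested, and D5 and D7, with red-cell means of 3.25 and 3.81, had NF-kB means of -0.17 and -0.038. Of the lists of other cell types, some had means lower in D1 and D2 than in every other rat. These were meningeal and fibroblast markers (-0.59 and -0.46), microglia markers (-0.47 and -0.41) and newborn neuron genes (-0.31 and -0.27). The rest did not set both rats apart, and the part of cell types in the inflammatory genes was not tested.

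Chaperones of the endoplasmic reticulum were wide among Dox rats, often in the opposite sense, with D1 and D2 lowest. Over the 17 tested unfolded protein response genes D1 and D2 were both lowest in 9 and both highest in 2, beside 12.5% and 13.7% of all genes. Of 17 tested unfolded protein response genes 5 were wider in Dox than in Veh (29.4%, beside 3.85% of all genes) and 9 wider than in Dox + ABT (52.9%, beside 6.1%), and D1 and D2 were both lowest in each of the former 5. Without D1 and D2 the counts were 1 and 4, and without D5 and D7 they were 2 and 3. Hspa5, the main chaperone of the compartment (BiP), had 3099 in D1, 2906 in D2, 6024 in D5, 6348 in D7, 4219.6 in D9, 4127 in D10, 4615 in D13 and 6813 in D14. Veh rats ran from 4777 to 6839 with a median of 5571 and Dox + ABT rats from 4796 to 6005 with a median of 5069.6, so D1 and D2 were below every other rat (limma p = 0.000606 from Veh and 2.79e-05 from Dox + ABT). Pdia4, a disulfide isomerase, had 189 and 212 against 385 to 509.6 in the other Dox rats and 385 to 526 in Veh (p = 0.000124, adjusted p = 0.0415). In Hspa5 the 6 other rats also parted into 4219.6, 4127 and 4615 in D9, D10 and D13 and 6024, 6348 and 6813 in the libraries with a high ribosomal share. With the kind of library in the fit, 2 members were wider than in Veh and 2 wider than in Dox + ABT.

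Of 18 cytosolic heat shock genes 4 were wider in Dox than in Veh (22.2%, beside 3.85% of all genes), all 4 with D1 and D2 lowest, and 2 were wider with the 16 and 10 libraries in the fit. Over the whole list the median SD ratio was 0.993, and D1 and D2 were both lowest in 6 of the 18 and both highest in 2, beside 12.5% and 13.7% of all genes. Chordc1, a co-chaperone of HSP90, had 194 in D1, 216 in D2, 544 in D5, 502 in D7, 475 in D9, 415 in D10, 411 in D13 and 457 in D14, beside 403 to 529.9 in Veh and 395 to 537 in Dox + ABT (limma p = 5.58e-06, adjusted p = 0.0127). Hsph1, an HSP110 chaperone, had 2443 and 2625 against 4002 to 5309 (p = 0.00157). D1 and D2 had less than any Veh rat of both.

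Further genes placed D1 and D2 at an end. Ciart, a repressor of the circadian clock, had 309 and 347 against 64.6 to 135 in the other Dox rats (p = 5.80e-05), and Cry2, a core clock repressor, 2866 and 3272 against 1688 to 2109 (p = 0.000202), while 3 of 19 clock genes were wider than in Veh in all (15.8%, beside 3.85%), and 1 with the 16 and 10 libraries in the fit. Apcdd1, an inhibitor of WNT signalling, had 1503 and 1471 against 423 to 633 (p = 7.27e-06). On the low side, Htr1a, the serotonin 1A receptor, had 166 and 156 against 462 to 772 (p = 0.000692 from Veh and 1.80e-05 from Dox + ABT), and Bdnf, the neurotrophin, 438 and 453 against 830.1 to 1214 (p = 0.00231). Ccnd1, cyclin D1, had 96.8 and 113 against 324 to 464 (p = 0.000261), C3, the central complement protein, 119.6 and 97.4 against 192 to 451 (p = 0.00107), and the microglial receptor Cx3cr1 151 and 156 against 332 to 506 (p = 0.00191). Of 17 microglia markers D1 and D2 were both lowest in 10 and both highest in 3, beside 12.5% and 13.7% of all genes, and 2 were wider than in Veh (11.8%, beside 3.85%). Cdkn1a, the cell cycle inhibitor p21 that p53 induces, had 510.4 and 530.3 against 62.2 to 109, 30.8 to 91.0 in Veh and 33.5 to 80.7 in Dox + ABT, and passed the test from Dox + ABT (p = 0.00535) but not from Veh (p = 0.0112).

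Lists tied to senescence and DNA damage are given because ABT-263 acts on senescent cells. Of 23 tested senescence and secretory phenotype genes 3 were wider in Dox than in Veh (beside 3.85% of all genes), with a median SD ratio of 0.876, and 3 wider than in Dox + ABT (beside 6.1%), with a median of 1.30. Timp1, an inhibitor of matrix proteases, had 37.9 in D1, 31.7 in D2, 5.38 in D5, 32.8 in D7, 11.7 in D9, 13.4 in D10, 10.7 in D13 and 17.3 in D14, with 11.8 to 30.8 in Veh and 14.9 to 34.0 in Dox + ABT (limma p = 0.000687 from Veh and 0.0139 from Dox + ABT). D1, D2 and D7 were its 3 highest Dox rats. Of 22 tested p53 targets and DNA repair genes 1 was wider than in Veh (4.55%, near the 3.85% of all genes) and 3 wider than in Dox + ABT (13.6%, beside 6.1%), with medians of 1.18 and 1.33. D1 and D2 were both highest in 9 of the 22 and both lowest in 0, beside 13.7% and 12.5% of all genes. The list mean was 0.38 in D1 and 0.30 in D2, against -0.19 to 0.19 in the other Dox rats, -0.13 to 0.045 in Veh and -0.17 to 0.053 in Dox + ABT. Sesn1, a stress-induced inhibitor of growth signalling, had 2026 in D1, 1918 in D2, 1228 in D5, 1117 in D7, 1364 in D9, 1245 in D10, 1328 in D13 and 1018 in D14, with 1091 to 1507 in Veh and 1177 to 1411 in Dox + ABT (p = 0.00588 from Veh and 0.00155 from Dox + ABT), and D1 and D2 were again the highest.

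Immediate early genes placed D1 and D2 at either end. The pair was both highest in 6 and both lowest in 8 of the 27 tested members, beside 13.7% and 12.5% of all genes, and the mean of the list, in which opposite members offset each other, was -0.024 in D1 and 0.018 in D2, inside the -0.25 to 0.30 of the other Dox rats, where D14 was lowest and D10 highest. Pim1, a kinase induced by cytokines, had 187 and 175 against 21.8 to 59.6 in the other Dox rats, 15 to 36.2 in Veh and 20.8 to 56.6 in Dox + ABT (p = 0.00214), and 4 of 27 immediate early genes were wider than in Veh (14.8%, beside 3.85%). In endothelial markers 3 of 19 were wider (15.8%, beside 3.85% of all genes) and 2 narrower than in Veh (beside 1.71%), with a median SD ratio of 0.844. D1 and D2 were both lowest in 10 of the 19 and both highest in 3, beside 12.5% and 13.7% of all genes, and the list mean was -0.30 and -0.36 in them, the lowest of the Dox rats but inside the Veh range of -0.58 to 0.82. Mfsd2a, a lipid transporter of the blood-brain barrier, had 1117 and 1241 against 279 to 430.0 (p = 0.000319), and Slco1a4, an organic anion transporter of the same vessels, had 81.6 and 64.5 against 222 to 394 (p = 0.000947).

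**Figure D4:**
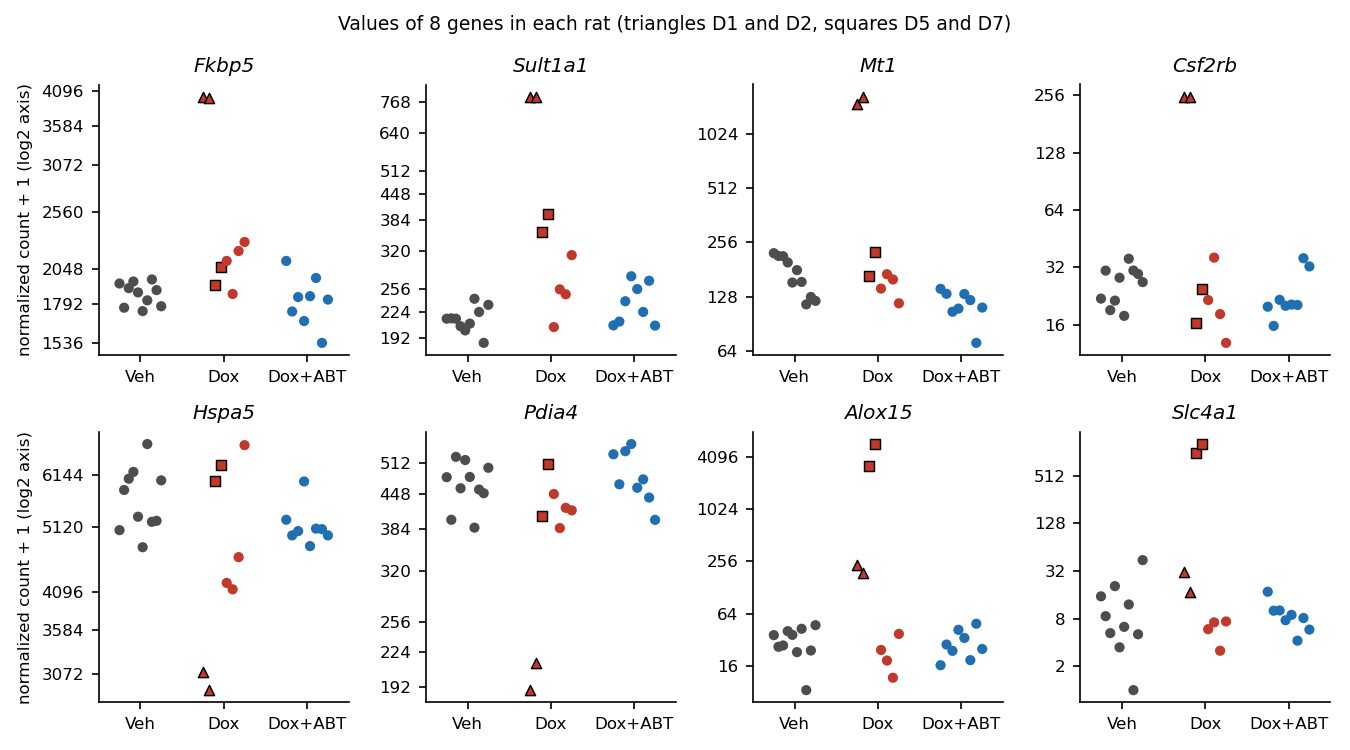
Normalized count + 1 (y axis, log2 axis) of 8 genes in each of 26 rats by group (x axis), with D1 and D2 as triangles and D5 and D7 as squares. The triangles lie apart at the top for Fkbp5, Sult1a1, Mt1 and Csf2rb and at the bottom for Hspa5 and Pdia4, and the squares lie apart at the top for Alox15 and Slc4a1.

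A second pair of Dox rats, D5 and D7, stood apart in other genes, with red-cell genes first. The mean of the 7 tested haemoglobin and red-cell genes was 3.25 in D5 and 3.81 in D7, -1.37 to 1.24 in the other Dox rats, -1.74 to 1.05 in Veh and -1.43 to 0.13 in Dox + ABT, and the pair held both highest places in 6 of the 7. Without Slc4a1, which passed the limit only through Dox, the mean was 2.73 in D5, 3.32 in D7 and -1.27 to 1.25 in the other Dox rats, and the pair was highest in 5 of 6. Slc4a1, the anion exchanger of the red-cell membrane, had 30.4 in D1, 16.4 in D2, 982 in D5, 1286 in D7, 4.89 in D9, 6.17 in D10, 2.15 in D13 and 6.37 in D14, with a Veh range of 0 to 42.9 and a Dox + ABT range of 3.21 to 16.5. Its mean was 11.2 in Veh and 8.06 in Dox + ABT, and its test is not used. Hba-a2, an alpha globin, had 31916 and 42089 in D5 and D7 and 919 to 7476 in the others, but its Veh rats ran from 624 to 6775 with a median of 3007 and the test was not passed from Veh (p = 0.115) or from Dox + ABT (p = 0.0176). The alpha globin copies are so alike that reads may be split between them. Under the limit of 20, Ahsp, the stabilizing protein of alpha globin, had 89.2 and 154 in the pair and at most 4.55 in the other Dox rats, and Epb42, a red-cell membrane protein, 36.1 and 42.6 against 2.35 to 14.6. Of the other 6 red-cell genes, 0 were wider than in Veh and 2 wider than in Dox + ABT, where 3.85% and 6.1% of all genes were. Over all 7, 5 were wider than in Veh with the 16 and 10 libraries in the fit, where Slc4a1 was not among them, and 0 were wider than in Dox + ABT without D5 and D7.

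Alox15, a lipoxygenase that oxidizes membrane lipids and is abundant in reticulocytes and eosinophils, had 232 in D1, 187 in D2, 3158 in D5, 5706 in D7, 23.5 in D9, 17.5 in D10, 10.7 in D13 and 36.4 in D14, against 7.44 to 46.1 in Veh and 15.3 to 48.0 in Dox + ABT. D5 and D7 were the highest, D1 and D2 lay between them and the Veh rats, and D9, D10, D13 and D14 inside the Veh range. The SD was 3.40, 0.72 and 0.54, and the difference of deviations 2.41 ± 0.53 from Veh (limma p = 1.27e-05, adjusted p = 0.0193). Its mean reached the 50 of the rule for named genes only through Dox, and the 20 of the test without it.

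Single interferon response genes had D5 and D7 on top. Rsad2, the antiviral enzyme viperin, had 169.9 and 336 in D5 and D7 against 13.9 to 25.6 in the other Dox rats (p = 0.000433), and Gbp5, a guanylate-binding protein, 109.9 and 52.4 against 7.20 to 36.4 (p = 0.000271). D5 and D7 were both highest in 3 of the 21 tested members, a share near the 14.7% of all genes, and D1 and D2 both lowest in 7, beside 12.5%. Wider than in Veh were 3 members (14.3%, beside 3.85%), and 1 with the 16 and 10 libraries in the fit. Of 25 cholesterol synthesis and transport genes 4 were wider in Dox than in Veh (16%, beside 3.85%), and 3 with the 16 and 10 libraries in the fit. Insig1, which holds the sterol sensor back, had 1250.3 and 1385 in D1 and D2 against 646 to 1064 (p = 4.20e-05). Galnt7, a mucin-type glycosyltransferase, had 730.2 in D5 and 343 in D7 against 131 to 274 in the others (p = 1.73e-05 from Dox + ABT).

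Across the 526 genes wider in Dox than in Veh, D1 and D2 were together the 2 highest or the 2 lowest Dox rats in 299 genes (56.8%, 129 at the top and 170 at the bottom), and D5 and D7 in 261 (49.6%, 186 and 75). Either pair did so in 443 genes (84.2%), where it did in 46.8% of all 13667 genes. The next pair, D7 and D14, did so in 35 and 23. Over all 13667 genes, D1 and D2 were both highest in 1877 and both lowest in 1704. The same counts were 2004 and 1649 for D5 and D7, and 1554 and 1378 for D7 and D14. In the other groups they were 1560 and 1883 for V10 and V11, and 1406 and 1235 for DA1 and DA2. Over all genes, pairs that shared an end were thus not particular to Dox. For the 834 genes wider in Dox than in Dox + ABT the shares were 48.0% for D1 and D2, 52.5% for D5 and D7 and 81.4% for either. These genes were chosen by the spread of the same rats, so the shares describe where the spread came from and test nothing. By rat, D5 held 22% of the sum of squared deviations of the Dox group over all genes, D7 15.1%, D2 13.4% and D1 13.2%. DA4 held 22% of the sum of the Dox + ABT group and V11 18.8% of that of the Veh group. A rat with a large part of its group's sum was thus not particular to Dox.

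**Figure D5:**
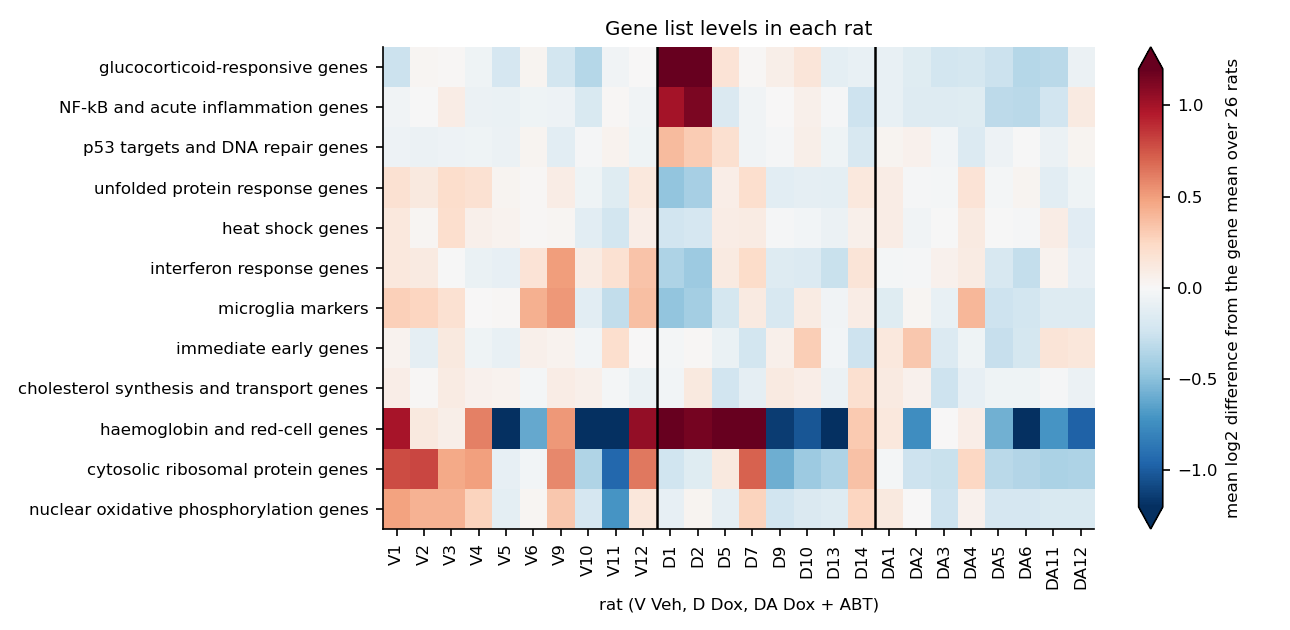
Mean log2 difference of the members of 12 gene lists (rows) from each gene's mean over 26 rats, for each rat (columns), with colours from blue (lower) to red (higher) and vertical lines between Veh, Dox and Dox + ABT. D1 and D2 stand out in glucocorticoid-responsive genes (1.25 and 1.27) and NF-kB genes (1.0 and 1.13), and D5 and D7 in red-cell genes (3.25 and 3.81), where values beyond the colour scale take its end colour.

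The counts were recomputed without these rats. Without D1 and D2, 508 genes were wider in Dox than in Veh, of which 260 were among the 526, and without D5 and D7 374 were, 242 of them among the 526. Without all 4 rats 68 were, 41 among the 526. Genes wider in Dox than in Dox + ABT numbered 840 without D1 and D2, 460 without D5 and D7 and 109 without all 4, of which 518, 289 and 66 were among the 834. The per-rat deviation of the 4 remaining Dox rats differed from that of Dox + ABT by -0.00491 (two-sided exact permutation test, p = 0.794). Leaving out the rats that lay apart lowers a spread by construction, and 4 rats carry a weaker test than 8.

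Of the genes narrower in Dox than in Veh, those described here had wide ranges in Veh. Nsd2, a histone H3 methyltransferase, had 596 in D1, 597 in D2, 574 in D5, 534 in D7, 575 in D9, 536 in D10, 558 in D13 and 547 in D14, and ran from 364 to 867 with a median of 516 in Veh, where V11 had 867, V10 751 and V1 364 (SD 0.064 against 0.38, limma p = 8.65e-05, adjusted p = 0.0359). Cers6, a ceramide synthase, ran from 121 to 316 with a median of 189 in Veh and from 183 to 241 with a median of 217 in Dox (p = 0.000144). V10 and V11 were the 2 highest Veh rats in both genes. With V10 and V11 set apart in the fit 66 genes were narrower, in place of 234.

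Nuclear genes of oxidative phosphorylation, of cytosolic ribosomes and of the proteasome had their smallest spread in Dox + ABT, while the 13 mitochondrially encoded genes did not. Among Dox + ABT rats the SD of the mean of these 13 was 0.552, against 0.537 among Dox and 0.670 among Veh rats, and their median SD ratio of Dox to Dox + ABT was 0.968. The mean of the 74 nuclear oxidative phosphorylation genes had an SD over rats of 0.370 (Veh), 0.192 (Dox) and 0.139 (Dox + ABT), that of the 77 cytosolic ribosomal protein genes 0.571, 0.439 and 0.220, and that of the 36 proteasome genes 0.310, 0.236 and 0.0849. Gene by gene, the median SD ratio of Dox to Veh was 0.732, 0.806 and 0.980 in this order, and 18 of the 36 proteasome genes had the larger SD in Dox. Members narrower in Dox than in Veh numbered 2, 1 and 0, where 1.71% of all genes were, and members wider in Dox than in Dox + ABT numbered 2, 4 and 5, where 6.1% of all genes were. Members narrower in Dox + ABT than in Veh numbered 14, 21 and 7, where 3.56% of all genes were. These last counts rested on V11, the Veh rat with the lowest ribosomal share, since without it they were 0, 0 and 1. The median SD ratio of Dox + ABT to Veh was 0.498, 0.450 and 0.489, beside 0.815 over all genes. Of the 10 libraries with a high ribosomal share, 6 were Veh, 3 Dox and 1 Dox + ABT, and the part of this uneven split in the list means was not tested.

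Zbtb11, a zinc finger transcription factor, was the 1 gene with an adjusted p under 0.05 for Dox + ABT against Veh. It ran from 636 to 720.0 with a median of 684 in Dox + ABT and from 394 to 834 with a median of 499 in Veh (SD 0.055 against 0.40, limma p = 3.09e-06, adjusted p = 0.0423), and its Dox rats ran from 525 to 725 with a median of 586. Cramp1, a chromatin protein of histone gene control, ran from 351 to 405 with a median of 369 in Dox + ABT and from 187 to 435 with a median of 245 in Veh (p = 2.26e-05). With the 16 and 10 libraries in the fit the p was 0.115 for Zbtb11 and 0.340 for Cramp1, and in the 16 libraries alone 0.0278 and 0.00285, so neither call was kept under the first and Cramp1 alone under the second. In both genes V5, V10 and V11 were among the highest Veh rats and the Dox + ABT rats lay inside the Veh range.

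A few genes were wider in the rats given ABT-263. Id3, an inhibitor of helix-loop-helix factors, had 816 in D1, 706 in D2, 712 in D5, 653 in D7, 656 in D9, 708 in D10, 688 in D13 and 701 in D14, a range inside that of Dox + ABT, which ran from 408 to 1052 with a median of 535 (SD 0.10 against 0.51, limma p = 0.000243, adjusted p = 0.0389). DA1 and DA2 had 926 and 1052 and the 6 others 408 to 712. Eno3, the muscle form of enolase, ran from 39.8 to 90.0 with a median of 56.0 in Dox + ABT, from 52.8 to 72.4 with a median of 63.4 in Dox and from 47.6 to 68.9 with a median of 59.9 in Veh (p = 0.000178 from Dox and 5.42e-05 from Veh). Npas4, an activity-induced transcription factor chosen after its values were seen, had 37.1 in D9 and 35.0 in D10 among Dox rats and 9.10 to 12.3 in the other 6, while Veh ran from 24.7 to 58.4 with a median of 32.6 and Dox + ABT from 17.4 to 79.4 with a median of 29.0, which was wider than Veh (p = 0.00351).

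Several genes of the vessel wall and of glia did not pass the test of spread from Veh. Vegfa, the endothelial growth factor, ran from 362 to 1449 with a median of 769 in Veh and from 936 to 2306 with a median of 1474 in Dox (p = 0.385), and was narrower in Dox + ABT than in Veh (918 to 1644, p = 0.00955). Gfap, the astrocyte filament protein, had SDs of 0.37 (Veh), 0.35 (Dox) and 0.28 (Dox + ABT) (p = 0.885), Vwf, the von Willebrand factor of endothelium, 0.69, 0.51 and 0.54 (p = 0.421), and Fn1, fibronectin, 0.66, 0.71 and 0.50 (p = 0.905). Fn1 had its 2 highest Dox values in D1 and D2, 2913 and 2662, while the Veh rats ran from 322 to 1143 with a median of 502. Mki67, a marker of dividing cells, had 610.0 and 558 in D1 and D2 against 131 to 317 in the other Dox rats, and passed the test from Dox + ABT (p = 0.00290) but not from Veh (p = 0.0313).

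Of the 10 genes with the largest SD among Dox rats at a mean of at least 50, Alox15 was wider in Dox than in Dox + ABT, Slc4a1 is given above without a test, and the 3 other protein-coding genes with a symbol did not pass the test in any comparison with Dox. Nts, the neuropeptide neurotensin, ran 0 to 689 in Veh, 3.91 to 365 in Dox and 8.43 to 600.1 in Dox + ABT, and Zmiz2, a co-activator, 3.08 to 531, 1.55 to 512 and 20.2 to 422. Cd3e, a T-cell receptor chain, ran 4.47 to 115, 0 to 118 and 2.04 to 149. The rest were 1 unnamed locus and 4 entries of U1 and 5S ribosomal RNA, short RNAs without a poly(A) tail.

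Other genes ranked among the 8 smallest p of a comparison and direction at a mean of at least 50. In Dox against Veh, Ash2l, Gpatch4 and Snx16 were wider (p = 3.29e-06 to 8.16e-06) and Zfp445, Phc3, Nsun7, Dbndd2, Ccnq and Erc2 narrower (p = 0.000192 to 0.000668). In Dox against Dox + ABT, Fam174b and Gpatch4 were wider (p = 1.65e-05 to 1.73e-05) and Ecm1, Efna3, Pcbd1, Sipa1, Aldh6a1 and Yipf6 narrower (p = 0.000470 to 0.00232). In Dox + ABT against Veh, Cpne7, Cox20, Ppl, Sipa1, Tspan15, Gypc and Mars2 were wider (p = 0.000474 to 0.00220) and Frmpd4, Nebl, Tmem170b, Elavl1, Mrpl35 and Ston2 narrower (p = 2.41e-05 to 0.000155). These are limma p over all genes, given as ranges.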

How the data were processed

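Poly(A) RNA of the dentate gyrus of 26 rats was sequenced by the authors on an Ion Proton instrument, aligned to rn6 with STAR 2.5.3a in Partek Flow and normalized by Median Ratio, per the methods and the labels; the annotation version is not given in the sources used here. The deposited signal values are normalized counts per row (counts divided by a size factor, not whole numbers), so no count model was used. Rows with the same gene identifier were summed (24012 rows, 17910 genes), and genes with a mean of at least 20 were kept; 8 of the 526 genes wider in Dox than in Veh and 12 of the 834 wider than in Dox + ABT passed this limit only through Dox. The study's own filter, a mean of 5 counts, is not applied in the file. Groups were taken from the labels.

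The values were transformed as log2(value + 1). Each rat's absolute deviation from its group mean, corrected for group size, was tested across all genes in 1 limma fit of 26 rats (limma 3.58.1, R 4.3.3, eBayes with trend, two-sided), with calls at p under 0.01 and Benjamini-Hochberg adjusted p beside them. A deviation shared by a pair of rats counts once for each. Per-rat medians were compared by exact permutation tests (43758 arrangements for 8 against 10 rats). The code was tested on simulated data. The genes named were, in each comparison, the 8 with the smallest p in each direction at a mean of at least 50, the 10 with the largest SD in Dox, the 2 members of each list with the smallest p for Dox against Veh, and fixed genes. Tnf, Selp, Il1b, S100a8, S100a9, Mpo, Ahsp, Epb42, Npas4, Mt2A, Mt3, Sgk1, Dusp1, Nfkbia and other list members beyond these 2 were chosen after their values were seen. The comparison, the members and all gene lists were chosen with earlier results of these data known. One gene is not reported here. Figures were drawn with matplotlib 3.10.9.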

Additional observations from a re-analysis of the deposited data

Results flagged for a closer look

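Over 144 sets of 1 value in 1 group (the means of 47 gene lists and the per-rat deviation, in 3 groups), 5 sets, all of list means, had 1 rat far from the others, and chance alone gives about 1 such set in 20. All 5 were in Dox + ABT. DA4, the 1 Dox + ABT rat among the 10 libraries with a high ribosomal share, was the highest for microglia markers (0.40, next rat 0.027), astrocyte markers (0.28, next rat -0.019) and mitochondrially encoded genes (0.96, next rat -0.056), and the lowest for sodium and calcium channel genes (-0.13, next rat 0.040), in log2 units from the mean of all rats. DA3 was the lowest for newborn neuron genes (-0.18, next rat -0.037). No Dox rat met this rule, which looks for 1 rat apart from all others and not for pairs: the glucocorticoid-responsive genes had 1.25 in D1 and 1.27 in D2, and the gap was to a rat at 0.16.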

How the results depend on the processing

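Counts below are of genes past p under 0.01, and per-rat values are differences of the median deviation with a two-sided exact permutation test. With deviations taken from the group median, 142 genes were wider and 71 narrower in Dox than in Veh, 189 and 10 in Dox than in Dox + ABT, and 10 and 145 in Dox + ABT than in Veh, and the per-rat differences were -0.00736 (exact p = 0.767), 0.0354 (exact p = 0.143) and -0.0428 (exact p = 0.0577). Squared deviations gave 148 genes narrower in Dox than in Veh, 434 wider and 22 narrower than in Dox + ABT, and 20 wider and 207 narrower in Dox + ABT than in Veh. With no filter, 91 genes were narrower in Dox than in Dox + ABT and 100 wider in Dox + ABT than in Veh, where transcript rows gave 74 and 70, a mean of at least 100 gave 21 for the second and quantile normalization 66 for the first.

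Setting V10 and V11 apart in the fit gave 896 wider and 66 narrower genes in Dox than in Veh and 92 narrower in Dox + ABT than in Veh, with a per-rat difference of -0.0104 (exact p = 0.562), and leaving them out gave 73 and 130 narrower genes and -0.0190 (exact p = 0.319). The ribosomal share as a covariate gave 66 narrower genes in Dox than in Veh, 472 wider than in Dox + ABT (0.0237 (exact p = 0.228) per rat) and 89 narrower in Dox + ABT than in Veh (-0.00327 (exact p = 0.792) per rat). The alternatives in the rest of this paragraph were chosen after seeing the data. The 16 and 10 libraries as a covariate gave 321 wider and 100 narrower genes in Dox than in Veh, 361 and 60 than in Dox + ABT and 114 narrower in Dox + ABT than in Veh, with per-rat differences of 0.0171 (exact p = 0.436) and -0.0101 (exact p = 0.411) for the last pair of comparisons. The 16 libraries alone gave 537 narrower genes in Dox than in Veh, 189 than in Dox + ABT and 113 wider in Dox + ABT than in Veh, with per-rat differences of -0.00411 (exact p = 0.762), 0.00572 (exact p = 0.640) and -0.00983 (exact p = 0.5). Without D1 and D2 the per-rat difference of Dox from Veh was -0.00314 (exact p = 0.878). Without D5 and D7 it was -0.0289 (exact p = 0.229), 460 genes were wider and 69 narrower than in Dox + ABT, and the per-rat difference from Dox + ABT was 0.0155 (exact p = 0.498). Without all 4 rats 68 genes were wider than in Veh (-0.0494 (exact p = 0.0959) per rat), and 109 wider and 62 narrower than in Dox + ABT (-0.00491 (exact p = 0.794) per rat). The covariates and the smaller sets of rats also leave fewer degrees of freedom; other causes were not tested.

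With each rat left out in turn, 375 to 737 genes were wider and 145 to 312 narrower in Dox than in Veh, 535 to 1063 and 31 to 60 than in Dox + ABT, and 26 to 51 and 237 to 726 in Dox + ABT than in Veh, and the per-rat differences were -0.00951 to 0.0165, 0.0350 to 0.0605 and -0.0567 to -0.0317. Single rats moved a count by over 1.5 times for 4 of the counts: genes wider in Dox than in Dox + ABT were 535 without D5, genes narrower there were 60 without DA5, genes narrower in Dox than in Veh were 145 without V11, and genes narrower in Dox + ABT than in Veh were 237 without V11, 313 without V10, 316 without DA6, 323 without DA2 and 324 without DA5. The replicate numbers named different rats, and the labels do not say what the numbers stand for. Deviations had correlations from -0.222 to 0.442 between same-numbered rats, with no correlations of unlike-numbered rats to set beside them. Whether a number stands for a shared batch or order was not tested. With the number as a replicate block, 611 genes were wider and 187 narrower in Dox than in Veh, 818 and 34 than in Dox + ABT, and 27 and 359 in Dox + ABT than in Veh. For single named genes, 3579 of the values without 1 rat kept their direction and side of the threshold and 295 lost the call, and under the other alternatives 1318 kept both and 275 lost the call. The sign turned for Mt-co1 under quantile normalization (0.028) and for Ccnq with the ribosomal share (0.038), both for Dox against Veh. More signs turned under the alternatives chosen after seeing the data. Of 66 named genes called for Dox against Veh, 32 were called and 8 turned sign without D1 and D2, 53 and 5 without D5 and D7, 11 and 21 without all 4, 39 and 5 in the 16 libraries alone, and 34 and 0 with the 16 and 10 libraries as a covariate. Of 56 called for Dox against Dox + ABT, the same figures were 25 and 7, 44 and 3, 7 and 20, 42 and 2, and 40 and 0. Of 27 called for Dox + ABT against Veh, 27, 26, 24, 10 and 12 were called in this order and 0 turned sign. The files give no read depth, so counting error could not be set apart from spread between rats at low values.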
